A study of Mus musculus with 22 samples.

Results

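Club cells of the airway were read here as 396 droplet barcodes, out of 176676 in 11 libraries of pooled mouse organs and 179929 in the 22 libraries of the whole series. A barcode was taken as a club cell when it held at least 200 detected genes, at most 25% mitochondrial unique molecular identifiers (UMIs, each standing for 1 captured transcript), at least 10 UMIs of Scgb1a1, a UMI in at least 2 of Cyp2f2, Scgb3a2, Hp, Aldh1a1 and Cldn10, and 0 UMIs of Ptprc, Pecam1 and Foxj1. Of the 93055 barcodes that passed the filters on genes and mitochondrial UMIs, 0.426% met the rule. The barcodes were thus selected on their measured UMIs of these genes, so the levels of these genes against other barcodes are a description and carry no test. Genotype was not part of the rule, and tests between genotypes run over libraries.

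The study asked what deletion of Nalcn, which encodes a sodium leak channel, does to cells of mice without tumours. All mice carried Prom1-CreERT2, a tamoxifen-inducible recombinase driven by the Prom1 promoter, and the Rosa26ZSG reporter, and they had no oncogene. Nalcn was to be lost in cells where Prom1 was active under tamoxifen, and in the cells descended from them. The solid organs of a mouse (kidney, liver, lung and stomach, with epididymis in males and uterus in females) were marked with antibody hashtags, pooled and profiled in 1 library. Since the hashtag reads were not analysed here, the organ that a barcode came from is not known. The wt group (both Nalcn alleles intact) held 5 libraries, of which replicates 1 and 2 were male at 571 days, replicate 3 was male at 608 days, and replicates 4 and 5 were female at 611 and 654 days. The het group (1 conditional allele) held 2 libraries of males at 551 days. The null group held replicate 2, a male at 552 days, and replicate 3, a female at 611 days, which has no genotype in its title and was placed by its strain entry. For 2 further libraries, of a male at 610 days and a female at 647 days, the title and the strain entry disagree on the genotype, and they were placed in no group. The labels do not state whether libraries of the same age and sex came from separate mice, so p-values measure the spread between these libraries.

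Null replicate 3 went against its labelled sex in part. The female-expressed Xist stood at 1347 CPM of all UMIs in this library, against 1180 to 2037 in the other 3 labelled female and at most 0.316 in the 7 labelled male. The Y-linked Ddx3y stood at 16.3, against at most 0.0284 and 58.0 to 122.0. Of its 9364 barcodes that passed the filters, 6166 held Xist alone, 361 Ddx3y or Uty alone and 158 both. It held 309 barcodes with at least 20 UMIs of the epididymal Spink8, and the other 3 labelled female held 0, 0 and 1. Among its 34 club cells 14 held Xist, of which 1 also held a Y-linked UMI, and none held a Y-linked UMI alone. The origin of the male RNA was not tested. Without this library the share difference between genotypes given further on was 16.8 points, no gene passed between genotypes, and 253 and 1981 genes differed from alveolar type 2 and ciliated cells.

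Club cells are secretory cells of the conducting airways. They release secretoglobins into the airway lining, metabolise inhaled chemicals with cytochrome P450 and conjugating enzymes, and can renew themselves and give rise to ciliated cells. They neighbour ciliated cells in the bronchioles, and surfactant-making alveolar type 2 cells lie beyond them in the alveoli.

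Scgb1a1, the transcript the selection rests on, encodes the small secreted protein uteroglobin. Its gene lies on the minus strand of mouse chromosome 19 (mm10, 9083636 to 9087958) and has 3 exons. The coding sequence of 291 bases is shown because no other transcript gave as many UMIs in these cells, with capitals marking the start and stop codons.
Scgb1a1: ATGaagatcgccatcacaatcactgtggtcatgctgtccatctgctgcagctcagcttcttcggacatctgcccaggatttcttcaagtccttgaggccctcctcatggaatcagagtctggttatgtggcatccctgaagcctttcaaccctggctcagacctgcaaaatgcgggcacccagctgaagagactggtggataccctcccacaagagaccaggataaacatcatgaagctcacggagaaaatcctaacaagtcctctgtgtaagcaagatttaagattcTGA

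Scgb1a1 dominated most barcodes of the selection. The median club cell held 3321.5 UMIs and 714 genes, and 47.7% of its UMIs were Scgb1a1 (quartiles 20.6% and 63.9%). Among the 9 libraries with at least 10 club cells, the library median ran from 24.6% in wt replicate 2 to 55.5% in het replicate 2. The values fell into 2 ranges. In 286 barcodes there were 500 or more Scgb1a1 UMIs, 42 held 100 or more but fewer than 500, 10 held 50 to 99, 17 held 20 to 49 and 41 held 10 to 19. The 338 barcodes with at least 50 held a median of 1622 Scgb1a1 UMIs, 51.7% of their RNA, and the 58 below that held 12.5, or 0.387%.

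**Figure D1:**
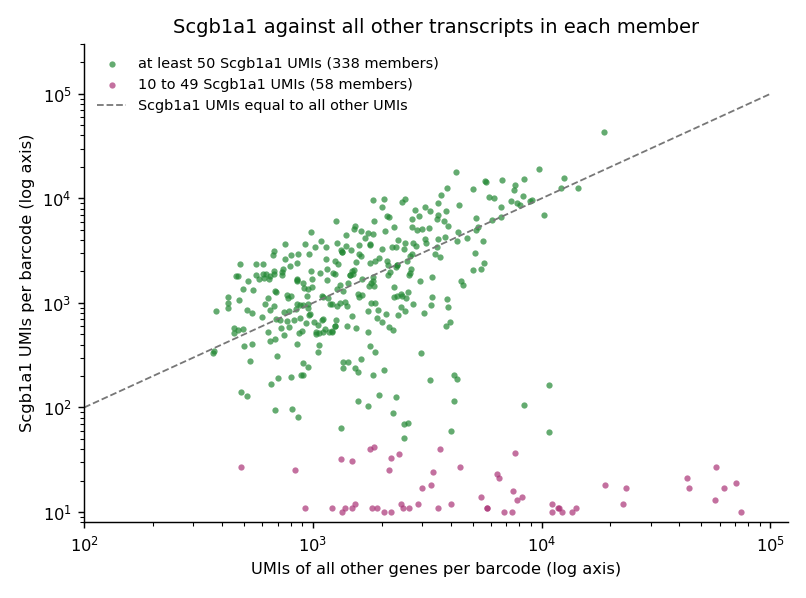
Each point is 1 club cell barcode; the horizontal axis gives its UMIs of all other genes and the vertical axis its Scgb1a1 UMIs, both on log axes, and the dashed line marks equal amounts. The 338 barcodes with at least 50 Scgb1a1 UMIs gather around the line, while the 58 with 10 to 49 lie far below it, some of them among the deepest barcodes.

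Of the club markers, Scgb3a2 and Cyp2f2 were frequent in the upper range and much less so in the lower one, while Cldn10 hardly differed. All 4 markers are genes of the rule, so their detection is a description and no check of the label. Of these 4 (Scgb1a1, Cyp2f2, Scgb3a2 and Cldn10), at least 3 were detected in 300 of the 338 barcodes of the upper range and in 21 of the 58 of the lower. Scgb3a2, the second club secretoglobin, had a UMI in 95.9% of the upper and 48.3% of the lower range. For Cyp2f2, the club cytochrome P450, these shares were 85.5% and 43.1%. Cldn10 had a UMI in 42.9% and 43.1%. Of the other genes of the rule, Aldh1a1 had a UMI in 64.2% and 53.4% and Hp in 71.6% and 41.4%. The reductase gene Cbr2, which was not part of the rule, had a UMI in 95.9% and 41.4%. Markers of other organs were more frequent in the lower range, where at least 20 UMIs of the 6 epididymis and uterus markers were found in 16 of 58 barcodes, against 6 of 338. For the 4 kidney proximal tubule markers these numbers were 6 and 5, and for the 6 alveolar type 2 markers 7 and 30. No barcode had 3 of the 4 neuroendocrine, cycling or ionocyte and tuft markers, and 1 had 3 of the 5 basal markers. Of the 4 endothelial and the 4 leukocyte markers, at least 3 were detected in 7 and 8 barcodes. These 2 lists reached 20 UMIs in 0 and 1 barcodes. Pecam1 and Ptprc, 1 of each list, are held at 0 by the rule. The part of such RNA in the levels below was not tested, and levels are therefore given for the upper range unless stated otherwise.

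Just inside the threshold, the 29 barcodes with 10 to 12 Scgb1a1 UMIs had a median of 3519 UMIs, with Cyp2f2 in 11 and Scgb3a2 in 13. Just outside it, the 82 otherwise matching barcodes with 7 to 9 had 9108.5 UMIs, with Cyp2f2 in 25 and Scgb3a2 in 20. Lowering the floor to 5 gave 600 barcodes, and raising it to 20, 50 or 100 gave 355, 338 or 328. Free Scgb1a1 RNA was widespread: per library, 20.9% to 93.9% of barcodes with at least 2 Pecam1 UMIs, an endothelial marker, held an Scgb1a1 UMI, but it made up 0.00573% to 0.676% of their UMIs (library medians of 1222 to 5549 UMIs per barcode). Scrublet scores were cut in each library to call 0.8% of barcodes as doublets per 1000 barcodes held, up to 25%. The share called over all barcodes was thus set by library size and not measured. By this cut 42 of the 396 club cells were called doublets, including all 11 of wt replicate 4. Of the 172882 distinct tissue barcodes 3746 (2.17%) were called in more than 1 library, as were 12 club cell barcodes (3.03%), none of which was a club cell in both. Total UMIs per library ran from 8571019 in wt replicate 5, the only one with no club cell, to 139793927 in wt replicate 2. Intervals and limits given here cover counting error only.

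Beyond Scgb1a1, which made up 55.7% of all UMIs in the upper range, the secretoglobin Scgb3a2 gave the most UMIs of any gene outside the mitochondrial genome, with 3.25% of the remaining UMIs. Levels below are in CPM, the UMIs of a gene summed over the club cells of a library and scaled to all their UMIs other than Scgb1a1, which keeps the share of that 1 gene out of the comparison. These 3' counts are not scaled by transcript length, so levels are compared between libraries and not between genes. Scgb3a2 stood at 26903.5, 27217.5 and 21021.9 in wt replicates 2, 3 and 4, at 33959.3 and 40107.8 in het replicates 1 and 2, at 30785.7 and 31662.2 in null replicates 2 and 3, and at 46279.3 and 37406.7 in the libraries without a group. The lowest value was in wt replicate 4 and the highest in a library without a group. Scgb3a2 is a gene of the rule, and its levels by genotype are described further on. Scgb1c1, a further secretoglobin, ranged from 149.7 to 685.3.

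Enzymes of xenobiotic metabolism were present in each of the 9 libraries with at least 10 club cells. Cyp2f2, which oxidises inhaled aromatic compounds, ranged from 4275.8 in null replicate 2 to 9624.0 in a library without a group, with a median of 7162.6. Cbr2, a carbonyl reductase, ranged from 5967.4 to 11223.6 (median 7790.2). The microsomal glutathione transferase Mgst1 ranged from 1321.7 in wt replicate 3 to 5831.9 in het replicate 2, and the glutathione transferases Gsta3 and Gstm1 from 171.0 to 907.8 and from 577.2 to 1021.6. Gstm1 varied least of these genes between libraries and Gsta3 most. The retinal dehydrogenase Aldh1a1, a gene of the rule, ranged from 1026.2 to 2629.5.

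Surfactant protein transcripts were also present. Sftpa1 ranged from 791.0 to 7427.4, Sftpb from 684.1 to 1056.1 and Sftpd from 97.9 to 796.9. Sftpb was the most even between libraries of the 3. After each barcode was thinned to 1000 UMIs, 39.3% of club cells, 95.3% of alveolar type 2 and 3.12% of ciliated barcodes held an Sftpa1 UMI, against 0.869% of the Pecam1 barcodes (unthinned 60.1%, 98.6%, 8.90% and 1.76%, at medians of 3321.5, 2422, 4466 and 2031 UMIs). For Sftpb the thinned shares were 17.7%, 89.5%, 1.83% and 0.584%. Thinning left out 17 club cells, 35 alveolar type 2, 17 ciliated and 989 Pecam1 barcodes. Sftpc, the alveolar type 2 defining gene, was at 31.8 to 2975.3 in 8 libraries and at 15799.7 in wt replicate 2, and 10 club cells held at least as many Sftpc as Scgb1a1 UMIs.

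A minority of club cells carried a second secretory programme. Scgb3a1, a secretoglobin of larger airways, had 10 or more UMIs in 43 of the 338 barcodes (12.7%), 1 to 9 in 21 and none in 274. The floor of 10 was chosen after the values were seen, so the following is a description without a test. Barcodes of this kind were found in 9 of the 10 libraries with a club cell of the upper range, as 9 of 53 in wt replicate 2, 2 of 15 in wt replicate 3, 4 of 10 in wt replicate 4, 4 of 104 in het replicate 1, 2 of 10 in het replicate 2, 6 of 42 in null replicate 2, 2 of 28 in null replicate 3, and 4 of 17 and 10 of 57 in the libraries without a group. They made up 3.85% in het replicate 1, the lowest of these 9, and 40% in wt replicate 4. Elsewhere 10 or more Scgb3a1 UMIs were held by 0 of 207 alveolar type 2 barcodes, 6 of 562 ciliated and 1 of 7662 Pecam1 barcodes.

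The Scgb3a1-rich barcodes held several transcripts of mucus and antimicrobial defence, and others of metabolism and transport, chosen for description after their values were seen. In CPM other than Scgb1a1, the antimicrobial Bpifa1 stood at 17314 in the 43 and 1.84 in the 274 without Scgb3a1, and the gel-forming mucin Muc5b at 2581 and 11.1. Bpifb1, a relative of Bpifa1, stood at 4015 against 0 (633 UMIs against none), and the bactericidal lectin Reg3g at 3761 against 0 (593 against none). Tff2, a trefoil peptide of mucus, stood at 2429 and 33.2, the iron-binding Ltf at 977 and 5.53, and Pigr, which carries IgA across epithelium, at 1364 and 189.8. Of other kinds, the glutathione transferase Gsto1 stood at 1300.1 and 189.8, the sulfotransferase Sult1d1 at 773.7 and 94.0, the cotransporter Slc12a2 at 799.1 and 158.5 and Cyp2a5 at 342 and 20.3. The general club genes were in both sets: Scgb3a2 at 59787 and 24183, Cyp2f2 at 9957 and 5818, Cbr2 at 6773 and 9138. The junction gene Cldn10 ran the other way, at 171 and 433. Surfactant genes went no single way, with Sftpb at 412 and 1098, Sftpa1 at 5080 and 2145 and Sftpd at 545 and 536.

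The same split was seen at equal depth. The Scgb3a1-rich barcodes were deeper, with a median of 2492 UMIs other than Scgb1a1 against 1337.5, so each was thinned to 500 such UMIs, which 42 and 259 barcodes reached. A Tff2 UMI was then found in 69.0% against 3.09%, Muc5b in 50% against 0.386% and Bpifa1 in 47.6% against 0.386%. Scgb3a2 was found in 100% and 90.3%. Within single libraries with at least 5 such barcodes, Muc5b stood at 2177 and 14.6 in wt replicate 2, at 2878 and 0 in null replicate 2, and at 3441 and 46.1 in a library without a group. Of the 4 goblet cell markers, Tff2 had a UMI in 37 of 43 and 18 of 274 barcodes, Agr2 in 7 and 2, Muc5ac in 5 and 3 and Spdef in 1 and 0, before thinning. At least 3 of the 4 were held together by 1 of the 338 barcodes.

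**Figure D2:**
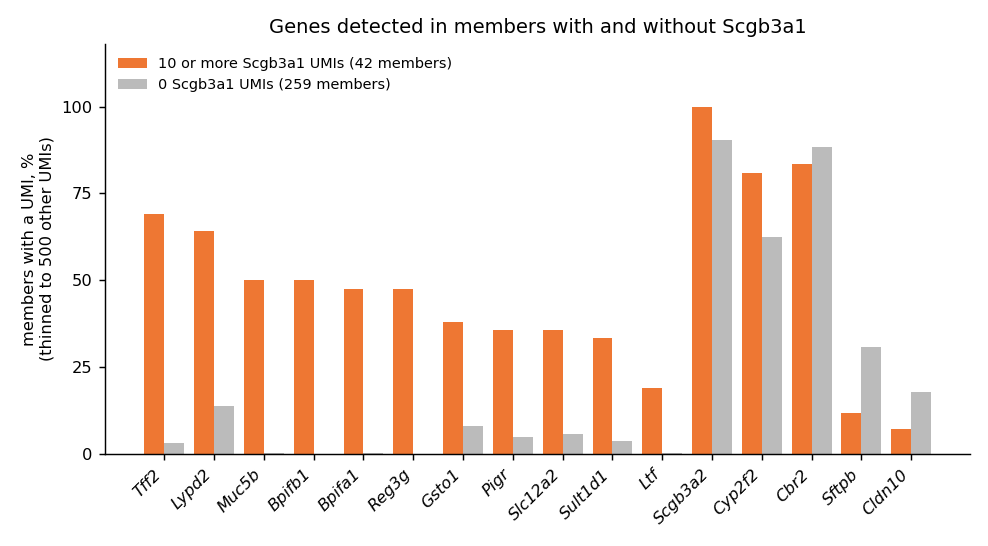
Bars give the percentage of club cells with a UMI of each gene after thinning to 500 UMIs other than Scgb1a1, for 42 barcodes with 10 or more Scgb3a1 UMIs (orange) and 259 with none (grey). Tff2 reached 69.0% against 3.09%, while Scgb3a2, Cyp2f2 and Cbr2 were frequent in both.

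The 120 bases before the start of 4 genes of this group are shown, read on the strand of each gene from RefSeq promoters (GRCm38.p6, the assembly of mm10), since these genes were detected together. Capitals mark the searched motifs, on either strand, which were TATAAA for a TATA box. For NKX2-1 the letters were CTCAAG. A forkhead motif was read as TGTTTAC. The same with A as the second letter was also taken as forkhead. The windows lie at chr11:49663475-49663594 (plus), chr2:154142760-154142879 (plus), chr2:154190698-154190817 (plus) and chr6:78468875-78468994 (minus).
Scgb3a1: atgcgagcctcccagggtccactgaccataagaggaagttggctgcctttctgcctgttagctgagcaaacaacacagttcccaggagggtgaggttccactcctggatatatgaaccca
Bpifa1: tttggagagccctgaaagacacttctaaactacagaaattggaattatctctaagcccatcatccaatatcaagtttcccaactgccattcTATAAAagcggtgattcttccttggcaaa
Bpifb1: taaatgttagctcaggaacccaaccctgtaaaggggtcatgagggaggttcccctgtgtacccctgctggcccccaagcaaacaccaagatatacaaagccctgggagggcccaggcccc
Reg3g: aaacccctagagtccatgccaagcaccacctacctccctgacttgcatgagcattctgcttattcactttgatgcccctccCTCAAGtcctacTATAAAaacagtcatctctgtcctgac
TATAAA stood 29 bases before the start of Bpifa1 and 27 before that of Reg3g, which also held CTCAAG at 39. These letters were in 6.34% (TATAAA), 2.47% (forkhead) and 6.03% (CTCAAG) of the 120-base windows of all 32851 promoters, and the other windows printed held none of them.

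Nuclear RNA was uneven among club cells. Malat1, a long non-coding RNA retained in the nucleus, had no UMI in 83 of the 338 barcodes (24.6%), against 13 of 207 alveolar type 2 (6.28%), 1 of 562 ciliated (0.178%) and 11 of 7662 Pecam1 barcodes (0.144%). In the 9 libraries with at least 10 club cells the share ran from 0 of 10 in wt replicate 4 and 4 of 53 (7.55%) in wt replicate 2 to 38 of 104 (36.5%) in het replicate 1 and 8 of 17 (47.1%) in a library without a group. Barcodes without it were shallower, with medians of 900 against 1838 UMIs other than Scgb1a1 and 361 against 783 genes. Ribosomal protein transcripts took a median of 24.9% of their other UMIs against 13.7%, and Scgb1a1 58.8% of all their UMIs against 50.8%. These medians pool libraries, and 38 of the 83 came from het replicate 1. Of the 9 libraries with at least 10 club cells, 8 held both kinds. In all of these 8 but wt replicate 2 (10.6% against 13.2%) the ribosomal share was larger without Malat1. The Scgb1a1 share was smaller without Malat1 in wt replicate 2 (27.5% against 50.6%), het replicate 1 (51.1% against 52.0%) and null replicate 3 (55.3% against 61.2%), and larger in the other 5. At 500 other UMIs, Malat1 was found in 63.4% of the upper range. The part of depth and cell integrity in this difference was not tested.

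Club cells were next compared with alveolar type 2 barcodes of the same libraries, in the 4 that held at least 20 of each (wt replicate 2, het replicate 1, null replicates 2 and 3; 71, 125, 43 and 34 club against 55, 25, 28 and 21 alveolar type 2 barcodes). The alveolar type 2 rule asked for at least 10 Sftpc UMIs and a UMI in at least 2 of Lamp3, Etv5, Slc34a2, Sftpa1 and Napsa. Genes of either rule are not read as results. UMIs were summed per library and class, over all barcodes of the rule, and tested with edgeR's quasi-likelihood test with library as a block. In het replicate 1, most UMIs other than Scgb1a1 in the club sum came from its 21 barcodes of the lower range. Single ones held up to 74270 such UMIs. At a Benjamini-Hochberg adjusted p under 0.05, 271 of 1549 genes differed (17.5%), 94 higher (6.07%) and 177 lower (11.4%) in club cells.

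Detoxifying enzymes were higher in club cells than in alveolar type 2 cells. Of 13 tested genes of the xenobiotic metabolism list, 11 were higher and none lower, with a median log2 difference of 2.15 against 0.05 over all genes tested. With the club cells of the upper range alone, 12 of 13 were higher, beside 7.91% of the 1366 genes tested. Mgst1 stood at 1542.7, 1419.7, 1761.2 and 1312.1 in club cells of wt replicate 2, het replicate 1 and null replicates 2 and 3 and at 487.4, 308.6, 215.6 and 201.2 in alveolar type 2 cells. The groups did not overlap, and the log2 difference was 2.29 ± 0.31 (SE; edgeR adjusted p = 0.00102, n = 4 libraries). Cyp4b1, a fatty acid hydroxylase, was higher by 2.63 ± 0.35 (edgeR adjusted p = 0.000924). Gstm2 was higher by 3.34 ± 0.43 and Gsto1 by 3.31 ± 0.54. Cbr2, which alveolar type 2 cells also held at 1756.6 to 2623.2, was higher by 1.19 ± 0.29 (edgeR adjusted p = 0.0195), a call that was lost without wt replicate 2 (0.0751), null replicate 2 (0.0944) or null replicate 3 (0.0792). The carboxylesterase Ces1d and the oxidase Aox3 did not pass.

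Mucosal defence genes differed in both directions. Of 15 tested, 8 were higher in club cells (Muc5b, Bpifa1, Bpifb1, Reg3g, Pigr, Tff2, Lypd2 and Cp) and 3 lower (Muc1, Chil1 and Cd74), of which Muc1 lost its call without wt replicate 2 (-1.66, edgeR adjusted p = 0.0554). Scgb3a1 stood at 2889.5, 955.4, 17590.6 and 3423.4 in club cells and had 1 UMI in all alveolar type 2 barcodes of these libraries, a ratio of 903 (95% counting interval 162 to 35670). Muc5b, Bpifb1 and Bpifa1 had no UMI there and were at least 18.3-fold, 29.9-fold and 179-fold higher in club cells, taking 3 UMIs over the 4 libraries as the limit. These 3 genes passed the filter on low counts through the club sums alone, so they could only be called higher. Of the 274 upper-range barcodes without Scgb3a1 in all libraries, 4 held Muc5b, 0 Bpifb1 and 1 Bpifa1. Lypd2 and Reg3g had 2 and 1 UMIs there, for ratios of 76.7 (21.1 to 636) and 66.8 (11.9 to 2651). Gabrp, a subunit of a chloride channel gated by GABA, had 148 UMIs in club and 1 in alveolar type 2 cells, a ratio of 49.9 (8.82 to 1985). The epididymal genes Adam7 and Spink11 were among the 10 largest rises, and het replicate 1 held the highest level of both (628.8 and 3187). For Spink11 the log2 difference of 5.32 became 2.81 in the upper range. Scgb3a1, Lypd2, Reg3g, Gabrp and Adam7 had 1 or 2 alveolar type 2 UMIs each. They too passed the filter on low counts through the club sums, so they could only be called higher.

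Genes of the alveolus were lower in club cells. Of 5 tested genes of the surfactant list 4 were lower and none higher (median log2 difference -2.89). Sftpb stood at 881.5, 463.1, 670.9 and 648.5 in club and at 4325.6, 6172.3, 4096.5 and 4548.2 in alveolar type 2 cells, without overlap (log2 difference -2.89 ± 0.30, edgeR adjusted p = 0.000234). Lpcat1, which remodels surfactant phospholipid, differed by -4.68 ± 0.37 and the lysozyme gene Lyz1 by -8.48 ± 0.78. The alveolar claudin Cldn18 was lower by 4.16 on the log2 scale, ± 0.42 (edgeR adjusted p = 0.000223). Class II antigen presentation was lower too: Cd74, its invariant chain, stood at 832.6, 137.7, 796.7 and 226.2 against 3008.1, 2602.7, 2775.9 and 2696.7, and H2-Aa, H2-Ab1 and H2-Eb1 were lower by 2.29, 2.01 and 1.75 on the log2 scale. The lung regulator Nkx2-1 differed by -2.35 ± 0.44 and Cebpa by -2.04 ± 0.32, while the Notch target Hes1 was higher by 2.43 ± 0.47 (edgeR adjusted p = 0.00579). Of 7 tested transport genes 3 were lower (Slc12a2, Slc26a9 and Aqp5) and none higher. In the upper range Aqp5 alone was lower, and the Slc12a2 call (-1.39 ± 0.39) was also lost in DESeq2 (adjusted p = 0.0597), with the libraries without a group (edgeR, 0.0654), and without wt replicate 2 (0.121), het replicate 1 (0.0723) or null replicate 3 (0.102). Of 8 junction and keratin genes Krt19 was higher and Cldn18 lower. None of the 16 immediate early and heat shock genes passed, but in the upper range Jun, Jund and Hspa1a were lower, beside 14.5% of the 1366 genes tested.

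**Figure D3:**
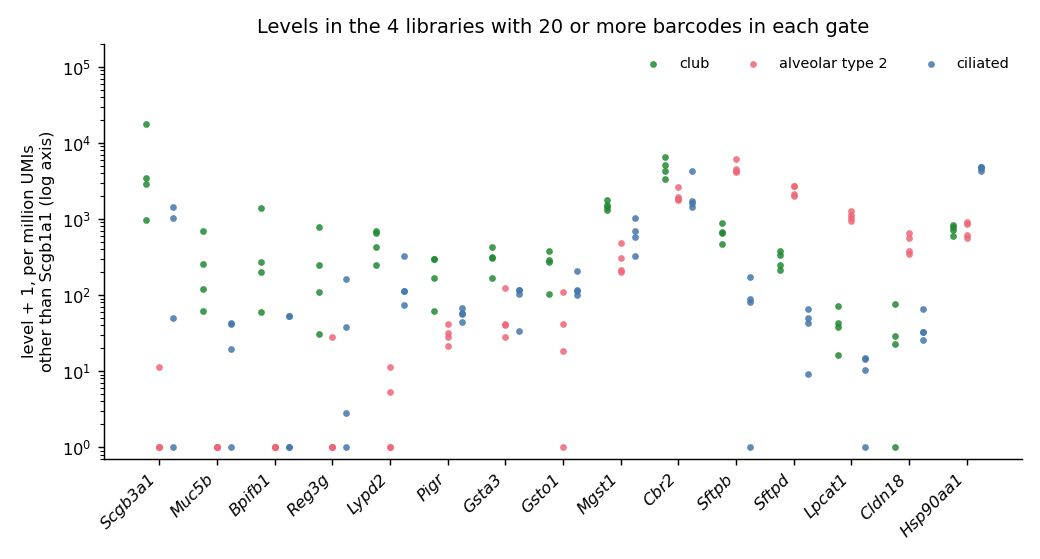
Points give the level plus 1 in each of 4 libraries, in CPM other than Scgb1a1 on a log axis, for 15 genes in club (green), alveolar type 2 (red) and ciliated (blue) barcodes. Sftpb and Sftpd stand highest in alveolar type 2, between in club and lowest in ciliated cells, and Muc5b is at 0 in every alveolar type 2 sum.

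Ciliated cells, the neighbours of club cells, were read as barcodes with a Foxj1 UMI and a UMI in at least 2 of Tmem212, Ccdc153, Dynlrb2, Tppp3 and Cfap126. In the same 4 libraries (89, 130, 56 and 68 ciliated barcodes), 2004 of 6951 genes differed by the same test (28.8%), 783 higher (11.3%) and 1221 lower (17.6%) in club cells. The ciliated sums held club transcripts in 3 libraries, with Scgb1a1 at 261598, 74893 and 92199 in wt replicate 2, het replicate 1 and null replicate 3 and at 1028 in null replicate 2. The part of mixed droplets in the differences was not tested.

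Secretory defence genes were higher in club than in ciliated cells. Of 16 tested mucosal genes 15 were higher and none lower (median log2 difference 2.104 against -0.07 over all genes tested), but Lcn2 and Slpi did not stay so in club cells of the upper range, where 13 of 15 were higher, beside 8.99% of the 6196 genes tested. Muc5b stood at 251.9, 60.9, 691.9 and 120.6 against 42.1, 18.5, 0 and 40.1 (log2 difference 2.95 ± 0.45, edgeR adjusted p = 0.000134). As described above, Muc5b was mostly in the Scgb3a1-rich club cells. Of 22 tested xenobiotic genes 13 were higher, among them Fmo2 by 2.56 ± 0.42 and Gsta3 by 2.12 ± 0.28, and 3 lower, of which Cyp2s1 differed by -2.94 ± 0.41 (edgeR adjusted p = 6.06e-05) and Cyp2b10 by -1.95 ± 0.37. Cyp2a5 was the other, and its difference did not pass in the upper range.

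Surfactant transcripts, low against alveolar type 2 cells, were high against ciliated cells. Of 10 tested, 8 were higher, and the 4 surfactant proteins kept this in the upper range. Sftpb stood at 173.6, 87.5, 0 and 80.1 in ciliated cells (log2 difference 3.32 ± 0.41, edgeR adjusted p = 1.97e-05), and Sftpd differed by 3.11 ± 0.30. Sftpc differed by 6.96 ± 0.45 and stood at 15724.3 in wt replicate 2 but at 83.9 in null replicate 2. At 1000 UMIs, an Sftpc UMI was found in 10.0% of club cells, 3.30% of ciliated and 4.75% of Pecam1 barcodes. Club cells with at least as many Sftpc as Scgb1a1 UMIs stayed in this comparison, and their part in the Sftpc difference was not tested. Among transport genes the cotransporter Slc12a2, the water channel Aqp5 and the sodium channel subunit Scnn1b were higher by 1.62, 1.84 and 2.03 on the log2 scale, and by 2.33, 2.95 and 3.19 in the upper range.

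Some genes of cilia and of the stress response were lower in club cells. The 10 largest falls had no club UMI in the 4 libraries, and among them Ccdc74a, Ccdc33, the dynein assembly factor Dnaaf1 and Iqcd were at least 41.1-fold, 27.7-fold, 25.7-fold and 27.1-fold lower. These 10 passed the filter on low counts through the ciliated sums alone, so they could only be called lower. The Notch ligands Jag1 and Jag2 differed by -2.75 ± 0.38 and -2.19 ± 0.55 (edgeR adjusted p = 5.49e-05 and 0.00671), and the Jag2 call was lost without het replicate 1 (-1.30, 0.228). The chaperone Hsp90aa1 stood at 829.1, 595.9, 712.8 and 784.2 in club and at 4638.9, 4268.9, 4895.5 and 4892.8 in ciliated cells, without overlap (log2 difference -2.33 ± 0.22, edgeR adjusted p = 5.21e-06). Of 16 immediate early and heat shock genes 6 were lower (Fos, Fosb, Egr1, Atf3, Hsp90aa1 and Dnajb1), with a median of -0.41, and 9 were lower with the upper range alone, beside 16.6% of the 6196 genes tested there. The calls of Fosb (edgeR adjusted p = 0.0550 without null replicate 2), Atf3 (0.0874 and 0.0806 without null replicates 2 and 3) and Dnajb1 (0.0869 without wt replicate 2) were lost without 1 library. The classical and class II antigen genes H2-K1, H2-D1, B2m, H2-Aa, H2-Ab1 and H2-Eb1 were higher, by 0.96 to 1.65 on the log2 scale, though H2-K1 and H2-D1 did not pass in the upper range or without a filter on low counts. The H2-Eb1 call was lost in DESeq2 (adjusted p = 0.209), without a filter (edgeR, 0.0698), and without wt replicate 2 (0.248), het replicate 1 (0.144) or null replicate 2 (0.0856). Of the invasion and EMT genes named by the study, a list that is not independent of these mice, Sparc and Timp3 were the 2 tested and both were higher, though in the upper range only Timp3 was tested (higher). Against alveolar type 2 cells Sparc was lower by 2.31 on the log2 scale and Timp3 did not pass (0.81 ± 0.38, edgeR adjusted p = 0.180), but was higher in the upper range.

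Nalcn itself was not detected in club cells, with 0 UMIs among 2471626 in 396 barcodes, which allows up to 1.21 CPM of all UMIs, Scgb1a1 included, and a share of up to 0.758% of cells with a UMI. Ciliated barcodes held 2 Nalcn UMIs and alveolar type 2 barcodes none. Deletion could therefore not be checked in these cells, in any genotype. Prom1, whose promoter drives the recombinase, had 8 UMIs in 7 club cells (1.77%), of which 6 were in wt replicate 2 and 1 in het replicate 2. The share was 1.34% in Pecam1 barcodes and 18.5% in ciliated barcodes (medians of 3321.5, 2031 and 4466 UMIs). These counts are of Prom1 at the time of sampling and do not mark which cells lost Nalcn.

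The share of club cells among club, alveolar type 2 and ciliated barcodes was compared between Nalcn-deleted and wt libraries, since organs were pooled in unknown proportions. In wt replicates 1 to 5 it was 7.32% (3 of 41), 33.0% (71 of 215), 25.4% (16 of 63), 19.3% (11 of 57) and 0% (0 of 2). In het replicates 1 and 2 it was 44.6% (125 of 280) and 22.9% (11 of 48), and in null replicates 2 and 3 33.9% (43 of 127) and 27.6% (34 of 123). The groups overlapped. The mean was 32.3% ± 9.39 (SD, n = 4) in het and null and 17.0% ± 13.4 (SD, n = 5) in wt, a difference of 15.3 percentage points (two-sided exact permutation test, p = 0.111, smallest possible 0.0159). Among males alone the difference was 11.9 points (3 against 3 libraries, exact permutation p = 0.4, smallest possible 0.1), and females had 1 deleted library. With only 2 barcodes in the 3 classes, wt replicate 5 had an exact 95% interval of 0% to 84.2%, and without it the difference was 11.01 points (exact permutation p = 0.2).

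**Figure D4:**
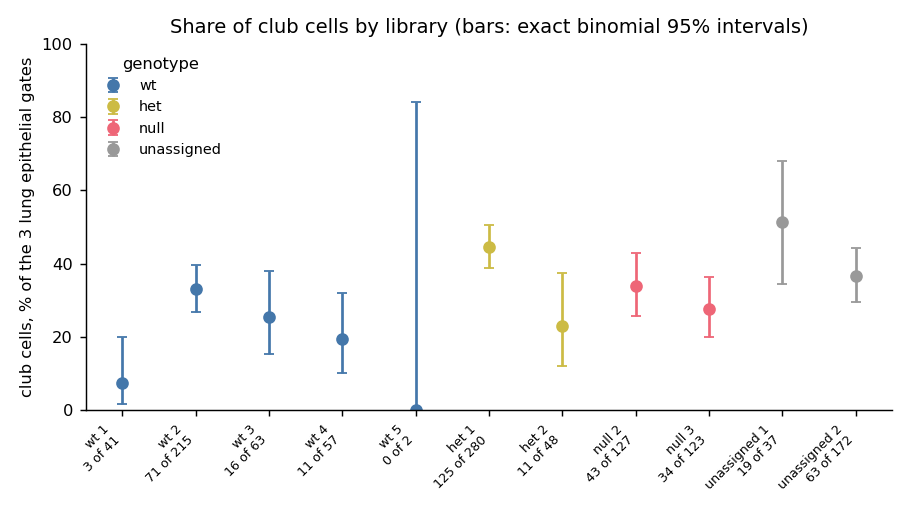
Points give the percentage of club cells among the barcodes of the 3 lung epithelial classes in each library, with exact binomial 95% intervals, coloured by genotype, with the 2 libraries without a group in grey; labels give club cells of all barcodes counted. The het and null libraries lie between 22.9% and 44.6% and overlap the wt libraries, which run from 0% to 33.0%.

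No gene of club cells passed the test between genotypes over all barcodes of the rule, but this count depended on the processing. Most UMIs other than Scgb1a1 in the het replicate 1 sum again came from its lower range. Only 4 libraries with a group held 20 club cells, of which 1 was wt, so libraries with at least 10 were used (wt replicates 2, 3 and 4, het replicates 1 and 2, null replicates 2 and 3), a choice made after the numbers were known. Among 742 genes tested with edgeR's quasi-likelihood test and sex as covariate, 0 differed between het and null together and wt (0% of genes tested, 23 at an unadjusted p under 0.05, DESeq2 0). The 742 leave out Scgb1a1 but hold Cyp2f2, Scgb3a2, Hp, Aldh1a1 and Cldn10, genes of the rule from which no test is read. Null against wt gave 0 (12 unadjusted, DESeq2 0), and het against wt gave 0 (34 unadjusted, DESeq2 7, all lower). These 7 were S100a8, S100a9, Cxcl2, Tyrobp, Igkc, Thbs1 and Gm26870, named after their values were seen, and the first 5 are genes of leukocytes or of inflammation. Between het and null together and wt, 24 genes passed without a filter on low counts, and 54 without het replicate 2, where het against wt gave 77. Without Scrublet doublets 29 passed, but wt replicate 4 then held 0 and het replicate 2 held 9 club cells, so both libraries left the fit and null replicate 3 was its only female. With het replicate 2 left out, het is 1 library, assumed to vary like the libraries of the other groups.

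In the upper range 2 of 617 genes (0.324%) passed between het and null together and wt, and the same 2 between null and wt, both epididymal. They are named because they passed, after their values were seen. Gpx5 stood at 30.0, 0 and 0 CPM for wt replicates 2, 3 and 4, at 99.5 and 27.5 for het and at 1731.7 and 799.3 for null libraries. Defb20 stood at 15.0, 0 and 0, at 88.0 and 55.0, and at 1047.6 and 421.9. The log2 differences between null and wt were 6.21 ± 0.71 and 6.32 ± 0.73 (edgeR adjusted p = 0.00140 for each). The sex covariate was the labelled sex, with wt replicate 4 and null replicate 3 as the females of this fit. Null replicate 3 held 309 barcodes with at least 20 Spink8 UMIs, and wt replicate 4 held 0. For epididymal genes the covariate cannot separate this difference from genotype. Over all UMIs of the same libraries Gpx5 stood at 117.9, 22.6 and 0 CPM for wt, 1936 and 3833 for het, and 6183 and 4406 for null, so the null libraries also held the most Gpx5 RNA as a whole. The part of free epididymal RNA in this result was not tested.

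In simulated data of the size of the fit over all barcodes, the test found 46 of 100 genes changed 4-fold and 4 of 100 changed 2-fold among 743 genes. Changes of that smaller size were mostly not detectable in that fit. The upper-range fit was not simulated.

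The main club cell products depended on which barcodes were counted. In the upper range Scgb3a2 stood at 26903.5, 27217.5 and 21021.9 CPM in wt replicates 2, 3 and 4 and at 33959.3, 40107.8, 30785.7 and 31662.2 in the 4 het and null libraries. The groups did not overlap, with a log2 difference of 0.44 ± 0.24. How many of all tested genes separated in this way was not counted. Scgb3a2 and Cyp2f2 are genes of the rule, so their values and log2 differences are a description, and no test between genotypes is read from them. Over all barcodes of the rule the Scgb3a2 level of wt replicates 2, 3 and 4 was 18851.7, 23863.7 and 19655.6 CPM, that of het replicates 1 and 2 was 10824.0 and 36129.1, and that of null replicates 2 and 3 was 30212.2 and 21535.9. The groups then overlapped, as het replicate 1 lay below all 3 wt libraries and null replicate 3 below wt replicate 3, and the log2 difference was 0.18 ± 0.48. In het replicate 1 most of the UMIs other than Scgb1a1 were then those of the lower range.

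For Cyp2f2 the groups overlapped in the upper range, with a log2 difference of 0.07 ± 0.30. For Cbr2 it was 0.16 ± 0.30, for Scgb3a1 -0.23 ± 0.76 and for Muc5b 0.47 ± 0.95. Het and null together overlapped wt in each of these 4 genes, and Cbr2, Scgb3a1 and Muc5b did not pass (edgeR adjusted p = 0.993 for each). Over all barcodes the differences were -0.16 ± 0.53, -0.15 ± 0.51, -0.33 ± 1.25 and 0.54 ± 1.51.

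**Figure D5:**
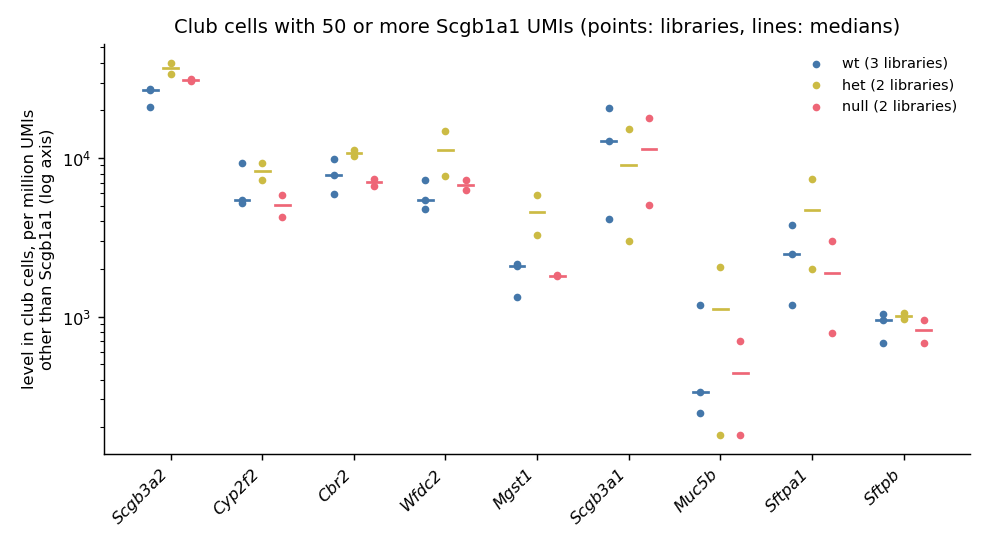
Points give the level in club cells with at least 50 Scgb1a1 UMIs of each library, in CPM other than Scgb1a1 on a log axis, for 9 genes in 3 wt, 2 het and 2 null libraries, with lines at the medians. For Scgb3a2 the 4 het and null points lie above the 3 wt points, and for the other 8 genes het and null together overlap wt. Scgb3a2 is a gene of the rule, so its levels are a description and no test.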

How the data were processed

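Organs of each mouse were pooled and profiled with 10x Chromium 3' v3 chemistry. Per the labels, reads were aligned to mm10 with Cell Ranger (2.1.1 in the processing notes, 3.0.2 in the file headers). The authors deposited whole-number UMI counts per gene (31053) and called barcode, without normalization, doublet removal or hashtag calls. The rule, lists and comparisons were chosen with earlier results of these data known. Barcodes were classed by the rules in the text. Counts were summed per library and class and tested with edgeR 4.0.16 (quasi-likelihood, TMM, filterByExpr, Benjamini-Hochberg). DESeq2 1.42.0 was the alternative. A level in 3' counts is not scaled by transcript length. Doublets were called with Scrublet in scanpy 1.11.5, at 0.8% per 1000 barcodes up to 25%, and kept. Text names every gene of the lists with a call it discusses, Nalcn, Prom1, and examples from the 10 largest rises and falls with one direction in every library. Genotype tests were planned for libraries with 20 club cells, and 10 was used instead. The tests were checked on simulated data: at a 4-fold change, 77 of 100 genes were recovered against alveolar type 2 and 81 of 100 against ciliated cells. At a 2-fold change these numbers were 22 and 24 of 100. The total depth per library is given in the text. Libraries without a group entered no comparison between genotypes. Alternatives included other scaling, filters, floors and left-out libraries.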

Additional observations from a re-analysis of the deposited data

Results flagged for a closer look

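Wt replicate 2 held 71 club cells, while the other 4 wt libraries held 0 to 16. The gap to the nearest library was 0.775 of the range, above the 95% limit of 0.71 for 5 samples. This library was also the deepest of the series. Of 5 quantities looked at in this way (numbers of club, alveolar type 2 and ciliated barcodes and both shares of club cells) it was the only one past the limit, and chance alone flags about 1 in 20 groups. The share of club cells in this library, 33.0%, was not past the limit.

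In libraries outside the comparisons above, the 10 libraries of sorted reporter-positive blood cells from mice without tumours (ntCZC) held 5 Scgb1a1 UMIs in 4 barcodes, or 0.373 CPM of all UMIs, with at most 2 in a barcode. They came from 2 wt, 4 het and 4 null samples of 6 males and 4 females at 551 to 649 days. The library of blood mononuclear cells (PBMC), from a wt male at 120 days, held 0. No blood barcode met the club cell rule, as 0 of 2109 in ntCZC libraries, which allows up to 0.142%, and 0 of 679 in the PBMC library, which allows up to 0.442%.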

How the results depend on the processing

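The count of genes differing from alveolar type 2 cells was 440 without a filter on low counts (231 higher, 209 lower) and 179 to 305 without 1 library (179 without wt replicate 2). Against ciliated cells it was 921 to 1981 without 1 library, with 921 without het replicate 1 and 1044 without wt replicate 2. With RLE scaling, DESeq2, the 2 libraries without a group, or at least 50 Scgb1a1 UMIs, both counts stayed within 1.5 times. With at least 50 Scgb1a1 UMIs, the ciliated comparison reversed for Lcn2 (log2 difference -1.17) and Cldn4 (-0.38); the cause was not tested. No other called gene of the lists or the named rises and falls changed direction under any alternative, and 22 of 530 and 67 of 748 values lost their call. Between het and null together and wt, 24 genes passed without a filter, 29 without Scrublet doublets, 2 with at least 50 Scgb1a1 UMIs, and 0 to 54 without 1 library. The 54 were found without het replicate 2, with 7 without het replicate 1 and 9 without null replicate 2. For null against wt these numbers were 14, 18, 2 and 0 to 22, and for het against wt 43, 67, 0 and 0 to 77, with 7 in DESeq2. Leaving out a het or null library leaves 1 in its group, which is assumed to vary like the others. Without doublets wt replicate 4 and het replicate 2 fell under 10 club cells and left the fit too. Replicate numbers were not taken to pair the libraries. The correlations of same-numbered libraries ran from -0.56 to 0.24, and a fit with the replicate block gave 0 genes in each contrast. Neither can exclude pairing, since differently numbered libraries were not correlated and the block left few libraries to estimate spread. The fit with at most 10% mitochondrial UMIs was not run, since too few libraries remained. The share difference kept its direction in every alternative (11.01 to 19.3 points without 1 library) and passed the threshold in none. A floor of 5 Scgb1a1 UMIs gave 600 club cells. Depth limits genes with few UMIs most, and 3 of the 7 libraries in the genotype test held 11 to 16 club cells. The part of these low numbers in its result was not tested.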
